A study of Mus musculus with 57 samples.

Results

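The 7 mouse genes *Cdkn1a*, *Cdkn1b*, *Cdkn1c*, *Cdkn2a*, *Cdkn2b*, *Cdkn2c* and *Cdkn2d* encode the cyclin-dependent kinase inhibitors. They were chosen by symbol, as all Cdkn1 and Cdkn2 genes, and no measured value entered this rule. Earlier results of these data were known when the family was chosen. All 7 are listed in both deposited count tables, among 25416 genes of an acute study and 54658 genes of a chronic study of doxorubicin (Doxo) cardiotoxicity. Doxo is an anthracycline drug that blocks topoisomerase II and damages DNA, and nicotinamide mononucleotide (NMN) is a precursor of NAD+. The comparisons ask what Doxo does to the hearts of mice and what NMN given before and after it changes.

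All hearts came from wild-type (WT) male C57BL6/J (B6) mice, with no transgene in any group. In the acute study, mice bought at 9 weeks of age received either vehicle only (Ctrl, 14 hearts), 1 i.p. injection of 20 mg/kg Doxo (Doxo, 13 hearts) or the same injection with 180 mg/kg/day NMN i.p. begun 5 days earlier (Doxo-NMN, 13 hearts), and hearts were taken on day 5. In the chronic study, mice of 14 to 16 weeks received vehicle (Ctrl, 5 hearts), 5 injections of 4 mg/kg Doxo to a total of 20 mg/kg (Doxo, 6 hearts) or these injections with 500 mg/kg/day NMN in the drinking water, also begun 5 days earlier (Doxo-NMN, 6 hearts), and hearts were taken 60 days after the first injection. Each heart is 1 animal that lived to the day of collection.

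These inhibitors bind the kinases that drive the cell cycle and stop cells from entering it. The Cip/Kip proteins p21 (*Cdkn1a*), p27 (*Cdkn1b*) and p57 (*Cdkn1c*) act on complexes of CDK2 and other kinases with their cyclins, whereas the INK4 proteins p16 (*Cdkn2a*), p15 (*Cdkn2b*), p18 (*Cdkn2c*) and p19 (*Cdkn2d*) bind CDK4 and CDK6. *Cdkn1a* is a classical target of p53 after DNA damage, *Cdkn2a* and *Cdkn1a* are widely read as markers of senescence, and adult cardiomyocytes are cells that have largely left the cell cycle.

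On day 5 after the acute injection, *Cdkn1a* and *Cdkn2d* were higher in Doxo than in Ctrl hearts, by 2.90-fold and 1.97-fold, and both were lower again in Doxo-NMN than in Doxo hearts. *Cdkn1b*, *Cdkn2b* and *Cdkn2c* were not called, and *Cdkn1c* was lower by less than the 1.5-fold required. No member was called at 60 days in the chronic study. The difference of the Doxo effect between the studies passed the test for *Cdkn2d*, although its call was lost when any of 9 single hearts was left out.

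Promoters are shown for the 2 members that were called higher in acute Doxo vs. Ctrl and lower in acute Doxo-NMN vs. Doxo. The promoters are windows of 300 bases around RefSeq starts of transcription (build GRCm38.p6), from 250 bases before to 50 bases after the start. *Cdkn1a* has 2 windows, at chr17:29090729-29091028 and chr17:29093519-29093818 (plus strand), and *Cdkn2d* has 1, at chr9:21291160-21291459 (minus strand). Capitals mark the 2 decamers of the p53 decamer pair in the first window and the GC box (GGGCGG on either strand) in the others.

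Cdkn1a window 1: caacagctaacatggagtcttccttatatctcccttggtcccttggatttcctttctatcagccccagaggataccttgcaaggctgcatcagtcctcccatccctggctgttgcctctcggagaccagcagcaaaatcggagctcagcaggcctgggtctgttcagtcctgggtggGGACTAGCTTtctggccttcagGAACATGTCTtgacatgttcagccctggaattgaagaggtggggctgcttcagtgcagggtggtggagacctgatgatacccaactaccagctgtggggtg

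Cdkn1a window 2: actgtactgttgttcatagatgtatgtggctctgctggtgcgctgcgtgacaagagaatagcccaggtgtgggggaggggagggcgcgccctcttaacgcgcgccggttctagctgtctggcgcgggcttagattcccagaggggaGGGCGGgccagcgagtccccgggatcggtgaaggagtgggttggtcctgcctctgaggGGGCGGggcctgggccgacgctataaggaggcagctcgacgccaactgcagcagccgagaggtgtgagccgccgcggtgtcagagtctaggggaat

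Cdkn2d window: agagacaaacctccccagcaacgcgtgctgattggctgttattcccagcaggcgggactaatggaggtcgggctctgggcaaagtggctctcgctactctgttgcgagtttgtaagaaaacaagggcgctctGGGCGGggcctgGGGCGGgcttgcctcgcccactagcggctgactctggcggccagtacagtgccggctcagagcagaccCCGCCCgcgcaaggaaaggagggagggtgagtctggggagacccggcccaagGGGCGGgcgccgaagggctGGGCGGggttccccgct

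The decamer pair of *Cdkn1a* lies between bases −73 and −42 from the start, with 12 bases between the decamers, and the 10 bases that follow the second decamer meet 9 of the 10 positions of a further one. Such a pair, with a spacer of up to 13 bases, was found in 24 of 32851 windows (0.0731%), and in no other window of the members. The GC box is common, being present in 35.7% of all windows. It stands 5 times in the *Cdkn2d* window and 2 times in the second *Cdkn1a* window. The TATA box (TATAAA, 13.6% of windows), AP-1 motif (TGACTCA, 5.20%), FOXO motif (GTAAACA, 3.65%) and glucocorticoid motif (0.475%) were searched on both strands and had no match in the windows of the members, and the E-box (CACGTG, 7.15%) had 1, in a *Cdkn2c* window. Of the members, 6 matched an entry, and *Cdkn1c* is named only. These matches describe letters and not binding.

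Total counts per heart were between 32409622 and 52102850 in the acute and between 17769886 and 23862287 in the chronic study, so that 3 counts, taken as the smallest detectable value, are 0.0550 to 0.105 CPM and 0.124 to 0.172 CPM. CPM are counts per TMM-normalized library size. The 8 cardiomyocyte marker genes were high in every heart, with summed levels from 30318 to 89012 CPM. The library labelled acute Doxo replicate 6 stood at Ctrl levels of *Cdkn1a*, *Cdkn2d* and the glucocorticoid-induced gene *Fkbp5* (56.4, 9.02 and 32.3 CPM), and it was kept in its group. Its median correlation with its group was also the lowest, at 0.932 against 0.959 to 0.973 for the other acute Doxo hearts. Atrial marker genes (limit 100 CPM of *Myl4*) split the acute hearts, with 8 of 14 Ctrl, 5 of 13 Doxo and 4 of 13 Doxo-NMN hearts high. In whole hearts, fewer cells of a type and less RNA per cell cannot be told apart.

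Levels of different members were compared per length, as CPM per kilobase of merged exons (RPKM). In acute Ctrl hearts the order was *Cdkn1a* at 17.7 ± 2.89 RPKM (SD, n = 14), *Cdkn1b* at 11.3 ± 1.05, *Cdkn2d* at 6.48 ± 0.435, *Cdkn1c* at 4.68 ± 0.530, *Cdkn2c* at 3.33 ± 0.271, *Cdkn2b* at 0.221 ± 0.115 and *Cdkn2a* at 0.0716 ± 0.0552 RPKM. The ranges over hearts overlapped between *Cdkn2d* and *Cdkn1c* and between *Cdkn2b* and *Cdkn2a*, and between no other neighbours. In chronic Ctrl hearts, *Cdkn2d* (11.6 ± 0.693 RPKM, n = 5), *Cdkn1c* (9.65 ± 4.19) and *Cdkn1b* (9.19 ± 0.915) came first, each overlapping the next, and *Cdkn1a* followed them at 4.81 ± 0.291 RPKM. The studies differ in supplier, age, vehicle, sequencing site and day, which cannot be told apart here. With coding lengths in place of merged exons, *Cdkn1b* came first in chronic Ctrl hearts and *Cdkn2c* stood above *Cdkn1c* in both studies.

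Summed over the 7 members, the level was 43.8 ± 3.10 RPKM in acute Ctrl, 82.2 ± 21.2 in Doxo and 48.6 ± 8.89 in Doxo-NMN hearts. *Cdkn1a* alone made up 40.3 ± 4.14% of this sum in Ctrl (range 32.8 to 46.4%), 60.5 ± 10.4% in Doxo (39.9 to 74.6%) and 44.4 ± 5.03% in Doxo-NMN hearts (37.1 to 53.9%). The *Cdkn2d* share was 14.9 ± 1.23% in Ctrl and 15.2 ± 4.59% in Doxo hearts. At 60 days the sum was 39.5 ± 3.49 RPKM in Ctrl, 45.7 ± 14.5 in Doxo and 38.9 ± 1.16 in Doxo-NMN hearts, and *Cdkn2d* held the largest mean share in each group (29.6 ± 2.65%, 28.9 ± 4.37% and 31.9 ± 3.52%).

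**Figure D1:**
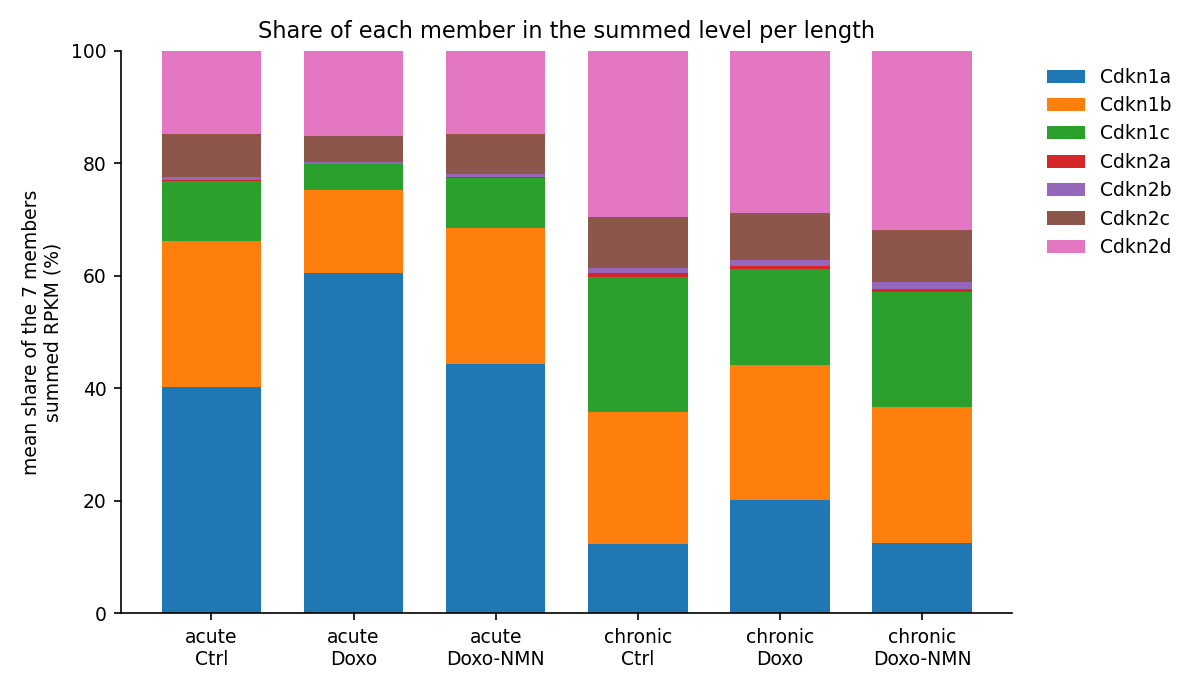
Mean share (%) of each of the 7 members in their summed RPKM, as stacked bars for the 6 groups with 1 colour per member. *Cdkn1a* (bottom) takes 60.5% in acute Doxo hearts against 40.3% in acute Ctrl and 12.2% in chronic Ctrl hearts. No error is drawn, and SDs are in the text.

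Genes were tested with edgeR's quasi-likelihood test over all genes past a low-count filter. In the acute study a call needs a Benjamini-Hochberg adjusted p under 0.05 together with a 1.5-fold or larger difference, and in the chronic study the adjusted p alone. Of the 7 members, 6 passed the filter in each study and *Cdkn2a* did not. In acute Doxo vs. Ctrl, 2 of the 6 were called, where 30.1% of 14240 tested genes were called, and 3 of the 6 had an adjusted p under 0.05 at any fold, where 68.1% of genes did. In Doxo-NMN vs. Doxo the numbers were again 2 (17.1% of genes) and 3 (53%). In Doxo-NMN vs. Ctrl they were 0 (7.11%) and 0 (26%), and no tested member had an unadjusted p under 0.05 by edgeR. DESeq2 and limma voom also called 0 in that comparison, in which no member differed by 1.5-fold. Other tests gave smaller p-values for 2 of them. With only these groups in the edgeR fit, the adjusted p was 0.0371 for *Cdkn1a* (log2 fold change 0.30) and 0.0289 for *Cdkn1c* (−0.16), limma voom gave 0.0377 for *Cdkn1c*, and unadjusted permutation p-values were 0.0219 and 0.00694. These shares do not set the members apart from genes in general.

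*Cdkn1a* (ENSMUSG00000023067; chr17:29090976-29100727, plus strand) encodes p21, which holds CDK2 complexes inactive after DNA damage. Acute Ctrl hearts had 47.8 CPM at the lowest, 62.8 at the median and 77.5 at the highest (63.0 ± 10.3, SD, n = 14), and Doxo hearts had 56.4, 192 and 307 CPM (183 ± 68.9, n = 13). Of the 13 Doxo hearts, 12 stood above every Ctrl heart, and only replicate 6 lay within the Ctrl range, with replicate 7 (78.1 CPM) just above it. The log2 fold change was 1.54 with a standard error (SE) of 0.165 (adjusted p = 7.16e-10), which ranks 253 of 14240 genes by p-value. Without replicate 6 it was 1.62 and without replicate 7 it was 1.61, and leaving out each heart in turn gave 1.45 to 1.62.

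With NMN, *Cdkn1a* had 56.3 CPM at the lowest, 70.8 at the median and 146 at the highest (77.6 ± 23.2, n = 13). Of the 13 Doxo hearts, 11 stood above every Doxo-NMN heart, including the highest one, replicate 10, and 5 Doxo-NMN hearts stood above every Ctrl heart. Compared with Doxo alone the level was 2.36-fold lower (log2 fold change −1.24, SE 0.168, adjusted p = 8.42e-07), and the log2 fold change was −1.35 without replicate 10. Against Ctrl hearts the difference was 0.30 (SE 0.163, adjusted p = 0.170), and 0.19 without replicate 10. The study placed *Cdkn1a* in an apoptosis panel and *Cdkn2d* in an oxidative stress panel that were drawn from these same hearts, so neither panel is independent evidence. It also measured p21 mRNA by RT-qPCR in another tissue, the gastrocnemius muscle of the chronic mice. There it reported p21 higher with Doxo and lower again with NMN, and p16 as barely detectable.

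**Figure D2:**
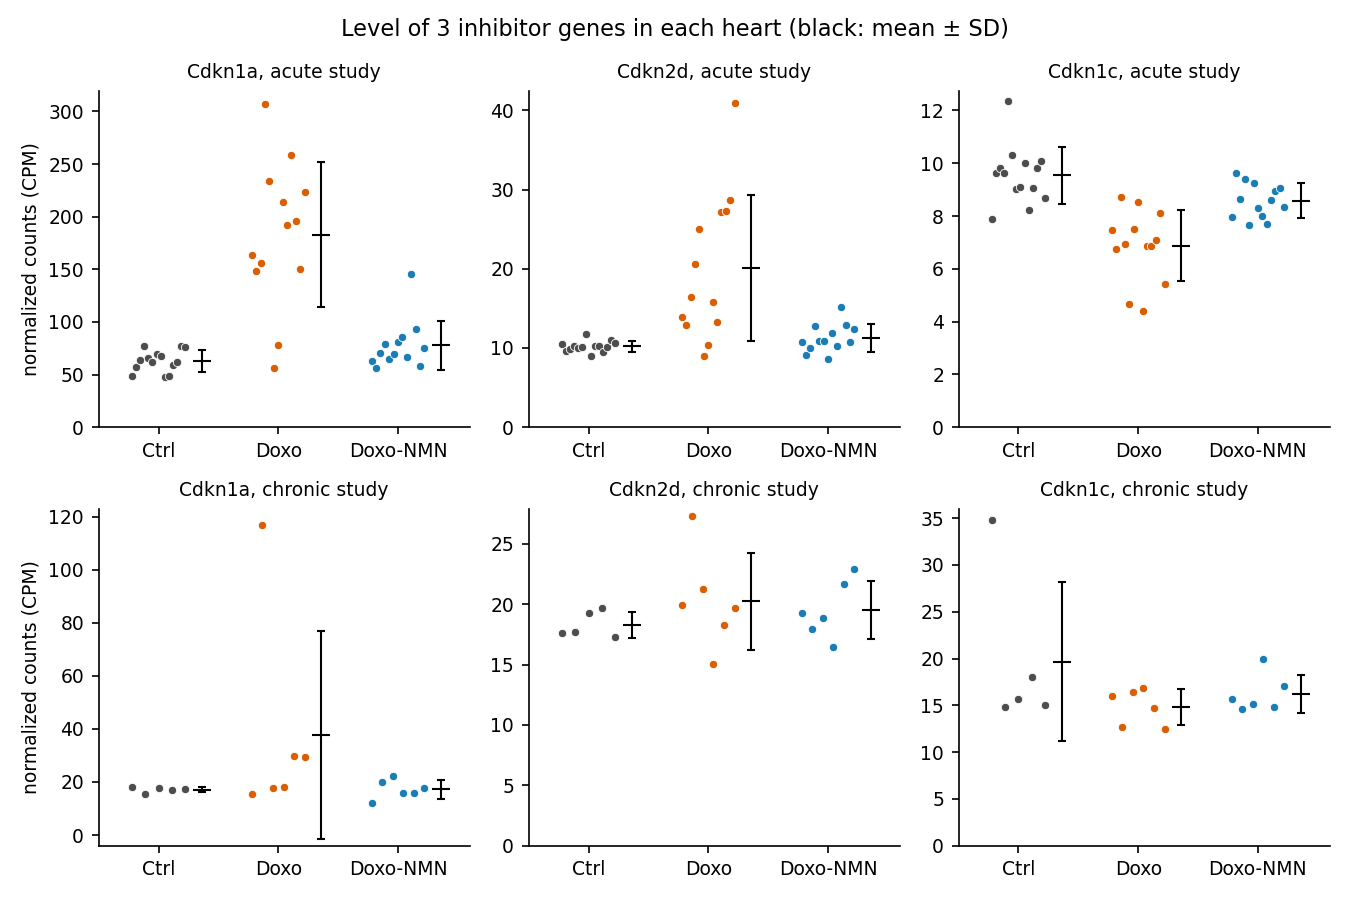
Normalized counts (CPM, linear axes) of *Cdkn1a*, *Cdkn2d* and *Cdkn1c*, with 1 point per heart and the mean ± SD in black, for the 3 groups of the acute (top) and chronic study (bottom). Acute Doxo hearts spread from 56.4 to 307 CPM of *Cdkn1a*, and 1 chronic Doxo heart at 117 CPM widens the SD of its group to below 0.

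In the chronic study the 5 Ctrl hearts had 15.4, 16.9, 17.4, 17.8 and 18.0 CPM of *Cdkn1a*. The 6 Doxo hearts had 15.4, 17.6, 18.1, 29.4, 29.6 and 117 CPM, and the Doxo-NMN hearts had 11.95 at the lowest, 16.9 at the median and 22.3 at the highest. Doxo replicate 2 stood far above all others, the hearts at 29.4 and 29.6 CPM were above all Ctrl hearts, and the other 3 lay at or about the Ctrl range. The library of replicate 2 also had the lowest median correlation with its group, at 0.964 against 0.985 to 0.990 for the other Doxo hearts. Doxo hearts differed from Ctrl by 1.14 on the log2 scale (SE 0.402), which did not pass the test (adjusted p = 0.548), and it was 0.37 without replicate 2. Doxo-NMN differed from Doxo by −1.13 (adjusted p = 0.999), and −0.36 without replicate 2.

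*Cdkn1b* (ENSMUSG00000003031; chr6:134920401-134925513, plus strand) encodes p27, the inhibitor that keeps resting cells out of the cycle. Its level was 51.3 ± 4.77 CPM in acute Ctrl (44.6 to 58.0), 49.5 ± 9.80 in Doxo (31.4 to 66.0) and 52.9 ± 9.41 in Doxo-NMN hearts (39.4 to 75.3). The groups overlapped widely, and the Doxo hearts lay on both sides of the Ctrl range, with 3 above and 4 below it. Doxo differed from Ctrl by −0.05 on the log2 scale (SE 0.0885, adjusted p = 0.619). Chronic hearts had 41.8 ± 4.17 CPM in Ctrl, 48.5 ± 8.81 in Doxo and 42.7 ± 3.10 in Doxo-NMN, and Doxo differed from Ctrl by 0.21 (log2, SE 0.110, adjusted p = 0.659).

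*Cdkn1c* (ENSMUSG00000037664; chr7:143458339-143461050, minus strand) encodes p57 and is an imprinted gene expressed from the maternal copy. In acute hearts it had 7.90 CPM at the lowest, 9.64 at the median and 12.4 at the highest in Ctrl, 4.39, 6.92 and 8.72 CPM in Doxo, and 7.65, 8.60 and 9.64 CPM in Doxo-NMN hearts. Of the Doxo hearts, 10 of 13 stood below every Ctrl heart and the other 3 overlapped the lower Ctrl hearts. Doxo hearts were 1.39-fold below Ctrl (log2 fold change −0.47, SE 0.0806, adjusted p = 3.13e-06), which is under the 1.5-fold limit. Doxo-NMN hearts differed by 0.32 from Doxo (log2, adjusted p = 0.00133) and by −0.15 from Ctrl (adjusted p = 0.153). Within hearts with low atrial marker counts the difference between Doxo and Ctrl was −0.70 on the log2 scale (adjusted p = 0.000152), past the limit, and within the high hearts −0.20 (adjusted p = 0.0263).

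Chronic Ctrl hearts had 14.9, 15.1, 15.7, 18.0 and 34.8 CPM of *Cdkn1c*. Doxo hearts had 12.5 at the lowest, 15.4 at the median and 16.8 at the highest, and Doxo-NMN hearts 14.6, 15.4 and 19.9 CPM. Ctrl replicate 1 was the high heart and the other groups overlapped the remaining Ctrl hearts. The library of this high heart also had the lowest median correlation with its group, at 0.969 against 0.987 to 0.989 for the other Ctrl hearts. Doxo differed from Ctrl by −0.40 on the log2 scale (SE 0.182, adjusted p = 0.619), and by −0.10 without that heart. The antisense gene *Gm44732* overlaps *Cdkn1c*, and *AC167363.2* on the other strand overlaps *Cdkn1a*. Whether the counting used strand is not given in the sources used here, so reads of these pairs cannot be told apart.

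*Cdkn2a* (ENSMUSG00000044303; chr4:89274471-89294653, minus strand) gives rise to p16 and, in another reading frame, to p19Arf, which stabilizes p53. Counts per gene do not separate the 2 products. Acute hearts held between 0 and 8 counts in Ctrl (49 in 14 hearts), 0 and 4 in Doxo (13 in 13 hearts) and 0 and 12 in Doxo-NMN (53 in 13 hearts). A count of 0 was found in 3 Ctrl, 8 Doxo and 1 Doxo-NMN hearts, and 3 or more counts in 7, 2 and 7 hearts, so most hearts were at or under the smallest detectable value. Without the low-count filter, edgeR placed Doxo at −1.66 from Ctrl (log2, adjusted p = 0.0175) and Doxo-NMN at 1.77 from Doxo (adjusted p = 0.0178), sizes that depend on the prior count at such levels. In chronic hearts there were 30, 28 and 39 counts in Ctrl, Doxo and Doxo-NMN, and levels from 0.0427 to 0.610 CPM that overlapped between all groups.

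*Cdkn2b* (ENSMUSG00000073802; chr4:89306299-89311039, minus strand) encodes p15 and is a gene that TGF-beta induces. It lies in the same cluster, with a gap of 11646 bases to *Cdkn2a*. It was almost as low, at 0.307 ± 0.159 CPM in acute Ctrl, 0.347 ± 0.190 in Doxo and 0.329 ± 0.189 in Doxo-NMN hearts, and at 0.538 ± 0.147, 0.614 ± 0.207 and 0.581 ± 0.121 CPM in the chronic groups. All groups overlapped. Acute Doxo differed from Ctrl by 0.16 on the log2 scale (SE 0.293, adjusted p = 0.643). Within hearts with low atrial marker counts it was 1.01 (adjusted p = 0.0383), and within those with high counts −0.61.

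**Figure D3:**
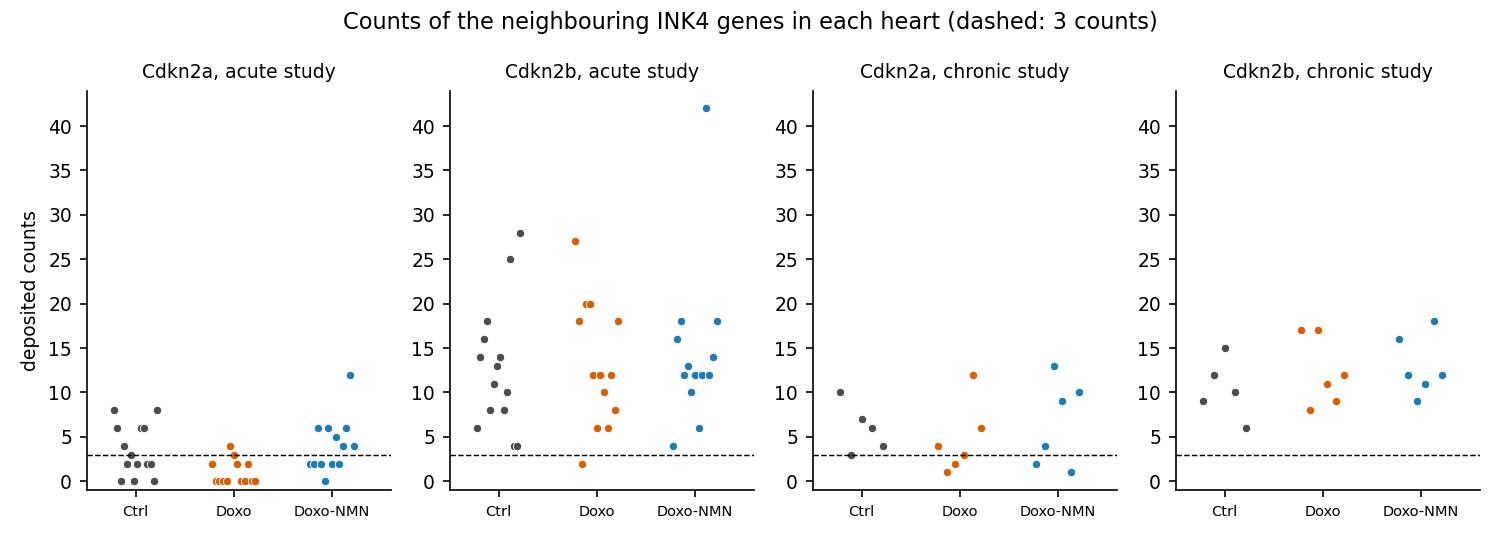
Deposited counts (linear axis) of *Cdkn2a* and *Cdkn2b* in each heart of the acute and chronic study, with 1 point per heart, 3 groups per panel and a dashed line at 3 counts. In the acute study, 8 of 13 Doxo hearts have no *Cdkn2a* count, against 3 of 14 Ctrl and 1 of 13 Doxo-NMN hearts.

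*Cdkn2c* (ENSMUSG00000028551; chr4:109660876-109667189, minus strand) encodes p18. Its level was 8.94 ± 0.727 CPM in acute Ctrl, 9.30 ± 1.20 in Doxo and 9.19 ± 1.06 in Doxo-NMN hearts. Doxo differed from Ctrl by 0.06 (log2, SE 0.0647, adjusted p = 0.429) and Doxo-NMN from Doxo by −0.02 (adjusted p = 0.842). Chronic hearts had 9.48 ± 1.11, 9.82 ± 0.776 and 9.68 ± 0.641 CPM, and the groups overlapped in both studies.

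*Cdkn2d* (ENSMUSG00000096472; chr9:21288410-21291407, minus strand) encodes the INK4 protein p19, which is not the p19Arf of the *Cdkn2a* locus. Acute Ctrl hearts had 8.94 CPM at the lowest, 10.2 at the median and 11.8 at the highest (10.2 ± 0.684, n = 14). Doxo hearts had 9.02, 16.4 and 40.9 CPM (20.1 ± 9.22, n = 13), and 11 of 13 stood above every Ctrl heart, with replicates 6 and 7 (9.02 and 10.4 CPM) inside the Ctrl range. Its log2 fold change was 0.98 (SE 0.148, adjusted p = 4.42e-07), 1.04 without replicate 6 and 1.03 without replicate 7, and 0.85 to 1.04 over all hearts left out in turn.

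Doxo-NMN hearts had 8.66 CPM of *Cdkn2d* at the lowest, 10.9 at the median and 15.1 at the highest (11.2 ± 1.74, n = 13). Of the Doxo hearts, 8 of 13 stood above all of them, and 5 Doxo-NMN hearts stood above every Ctrl heart. Compared with Doxo the level was 1.79-fold lower (log2 fold change −0.84, SE 0.151, adjusted p = 2.79e-05), and it differed from Ctrl by 0.14 (log2, adjusted p = 0.507). The 5 chronic Ctrl hearts had 17.3, 17.6, 17.7, 19.3 and 19.7 CPM, the Doxo hearts 15.1 to 27.3 (median 19.8) and the Doxo-NMN hearts 16.5 to 22.95 (median 19.1). The groups overlapped, and Doxo differed from Ctrl by 0.14 (log2, SE 0.121, adjusted p = 0.779).

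**Figure D4:**
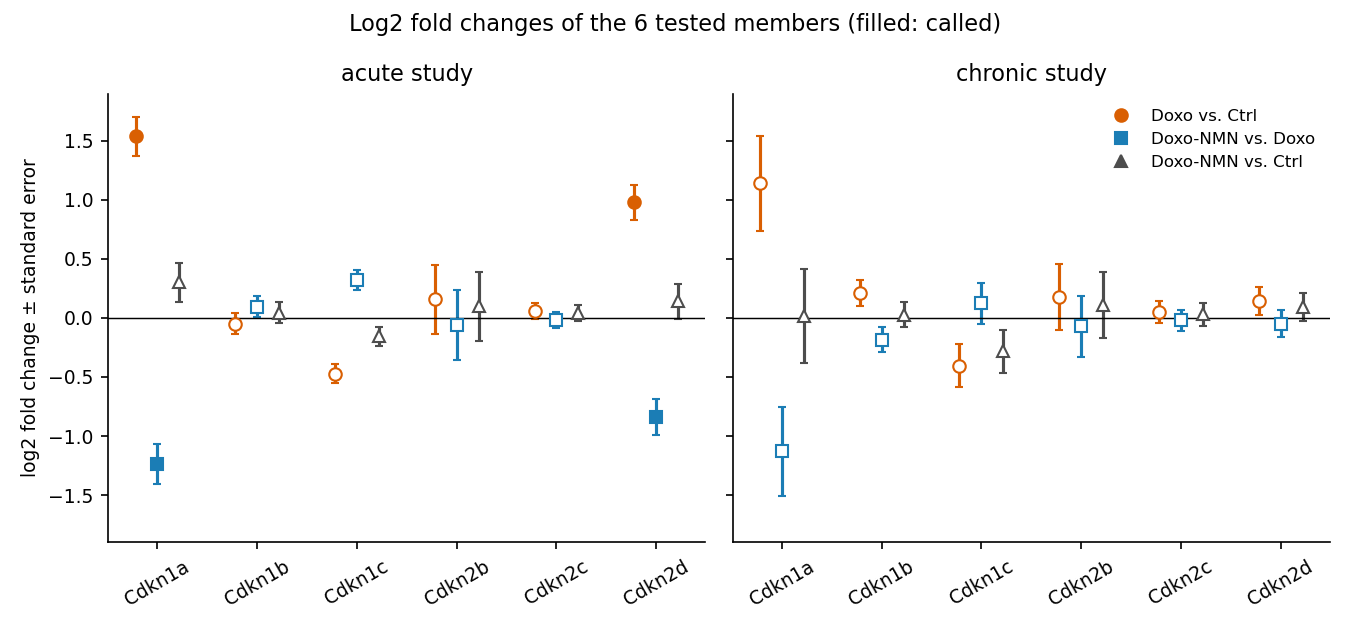
Log2 fold changes ± standard error of the 6 tested members in the acute (left) and chronic study (right), with circles for Doxo vs. Ctrl, squares for Doxo-NMN vs. Doxo and triangles for Doxo-NMN vs. Ctrl, with called values filled. The 4 filled points belong to *Cdkn1a* (1.54 and −1.24) and *Cdkn2d* (0.98 and −0.84) of the acute study.

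No tested member was called in the chronic comparisons, where edgeR called 0.0602% of 14960 genes between Doxo and Ctrl, 0% between Doxo-NMN and Doxo and 0.0401% between Doxo-NMN and Ctrl. At an unadjusted p under 0.05, 1174, 441 and 707 genes stood in these comparisons, among them *Cdkn1a* and *Cdkn1c* in the first and *Cdkn1a* in the second. DESeq2 and limma voom called 0 members too, and in Doxo-NMN vs. Doxo both called 0 genes.

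The Doxo effect of the 2 studies was compared with edgeR's interaction test on the Ctrl and Doxo hearts of both, in which 19.3% of 14965 genes passed. *Cdkn2d* was the only one of the 6 tested members to pass, with a log2 difference (chronic minus acute) of −0.83 (SE 0.282, adjusted p = 0.0364). The fold changes behind it were 0.98 on day 5 and 0.14 at 60 days. This call was lost in 9 of 38 cases of a left-out heart (acute Doxo replicate 12, chronic Ctrl replicates 1, 3 and 4, and chronic Doxo replicates 1, 3, 4, 5 and 6), with an adjusted p of up to 0.0681. For *Cdkn1a* the difference was −0.38 (SE 0.424, adjusted p = 0.531), and −1.17 (adjusted p = 0.00738) without chronic Doxo replicate 2.

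*Cdkn1a* and *Cdkn2d* were compared within each acute group, since pooled hearts carry the group difference. In a family of 33 such relations, their log2 CPM had a Pearson's r of 0.70 in Doxo hearts (n = 13, permutation p = 0.00570, adjusted 0.0627; Spearman's rho 0.62, permutation p = 0.0266, adjusted 0.184). In Doxo-NMN hearts r was 0.73 (n = 13, permutation p = 0.00476, adjusted 0.0627; rho 0.60, permutation p = 0.0335, adjusted 0.184). Neither passed the correction. Without the 2 hearts farthest from the median of *Cdkn2d* r was 0.60 in Doxo and 0.81 in Doxo-NMN hearts. *Cdkn1a* and *Cdkn1b* were opposed in Doxo hearts, with rho = −0.81 (n = 13, permutation p = 0.00151, adjusted 0.0249), which passed, and r = −0.60 (permutation p = 0.0304, adjusted 0.143), which did not. Without the 2 hearts farthest from the median of *Cdkn1b* r was −0.61. In Doxo-NMN hearts rho was −0.13 (permutation p = 0.684, adjusted 0.752) and r 0.33 (permutation p = 0.272, adjusted 0.449). Whether the groups differ in this relation was not tested.

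The level of *Cdkn1a* was set against 6 glucocorticoid-induced genes, of which 4 were called higher and 0 lower in acute Doxo vs. Ctrl, with a median log2 fold change of 0.79 against −0.00157 over all genes. Of all tested genes, 30.1% were called in either direction. *Per1*, a clock gene, had a log2 fold change of 2.98, *Fkbp5*, a co-chaperone of the glucocorticoid receptor, 1.58 and the kinase gene *Sgk1* 0.80. *Fkbp5* stood at 32.5 to 90.8 CPM in Ctrl, 32.3 to 228 in Doxo and 58.5 to 205 in Doxo-NMN hearts. Some hearts that stood apart in *Cdkn1a* stood apart in *Fkbp5* too, and others did not. Acute Doxo-NMN replicate 10 had 205 CPM of *Fkbp5* against 58.5 to 117 in its group, and chronic Doxo replicate 2 had 197 CPM against 12.8 to 24.3 in all other chronic hearts. Chronic Doxo replicates 5 and 6, with 29.6 and 29.4 CPM of *Cdkn1a*, had 16.3 and 15.3 CPM of *Fkbp5*, where chronic Ctrl hearts had 12.8 to 16.8. Acute Doxo replicate 4, the highest at 307 CPM of *Cdkn1a*, had 192 CPM of *Fkbp5*, within its group.

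In Doxo-NMN hearts the mean log2 CPM of the 6 genes and *Cdkn1a* had r = 0.87 (n = 13, permutation p = 0.00049, adjusted 0.0162) and rho = 0.82 (permutation p = 0.00107, adjusted 0.0249). Without the 2 hearts farthest from the median of this mean r was 0.51 (permutation p = 0.108), so that Pearson's r no longer passed without them. In Doxo hearts r was 0.71 (n = 13, permutation p = 0.0130, adjusted 0.107) and rho 0.27 (permutation p = 0.372, adjusted 0.682). There r was −0.13 without the 2 hearts farthest from the median of this mean. The score of 14 genes of the p53 circuit had r = 0.64 with *Cdkn1a* in the same Doxo hearts (n = 13, permutation p = 0.0240, adjusted 0.132) and rho 0.56 (permutation p = 0.0501, adjusted 0.236). In Doxo-NMN hearts r was 0.41 (permutation p = 0.165, adjusted 0.391) and rho 0.24 (permutation p = 0.437, adjusted 0.737). Without the 2 hearts of each group farthest from the median of this score, r was 0.43 in Doxo and −0.030 in Doxo-NMN hearts.

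The glucocorticoid-induced mean was also used as a covariate, a setting chosen after the values were seen. Its medians were 6.19 in Ctrl, 7.43 in Doxo and 6.79 in Doxo-NMN hearts, so the covariate itself carries part of the difference between the groups, and smaller fold changes follow in part from its construction. With it, the log2 fold changes in Doxo vs. Ctrl were 0.53 for *Cdkn1a* (edgeR adjusted p = 0.0985) and 0.54 for *Cdkn2d* (adjusted p = 0.143), and neither was called. In Doxo-NMN vs. Doxo they were −0.83 (adjusted p = 5.59e-05) and −0.66 (adjusted p = 0.00219), and both were called.

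**Figure D5:**
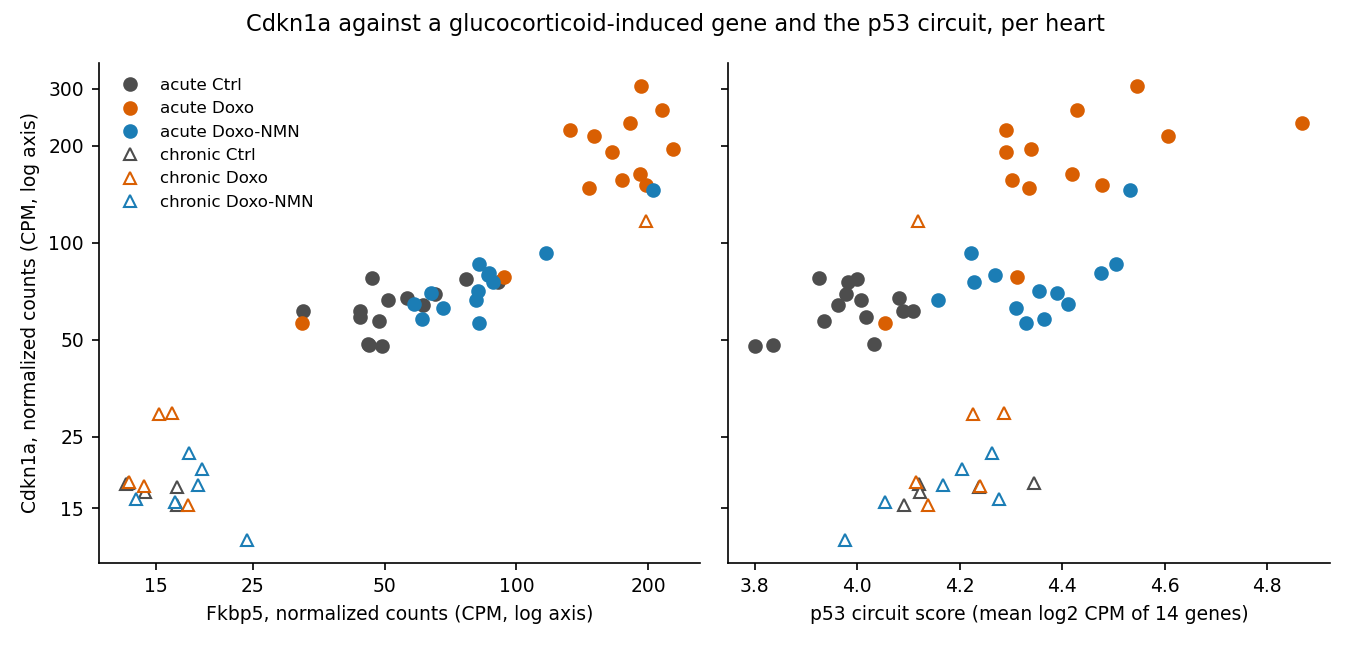
*Cdkn1a* (CPM, log axis) against *Fkbp5* (CPM, log axis, left) and against the mean log2 CPM of 14 genes of the p53 circuit (right), with 1 point per heart, acute hearts as filled circles and chronic hearts as open triangles, coloured by group. Chronic Doxo replicate 2 (117 CPM of *Cdkn1a*, 197 CPM of *Fkbp5*) stands above all other chronic hearts on both axes of the left panel, while its p53 circuit score of 4.12 on the right lies within the range of the other chronic hearts.

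In acute Doxo vs. Ctrl, 30.1% of all tested genes were called. Of 14 genes of the p53 circuit, 4 were called higher and 1 lower (median log2 fold change 0.18). Those with the smallest p-values were *Trp53inp1* (2.51), a p53-induced stress gene, the antiproliferative gene *Btg2* (3.03) and *Sesn2* (0.93), a sestrin of the stress response, and *Ccng1*, cyclin G1, was lower (−0.97). *Mdm2*, the ligase that degrades p53, had a log2 fold change of 0.07 (adjusted p = 0.253). The score of this circuit had medians of 3.99, 4.34 and 4.35 mean log2 CPM in Ctrl, Doxo and Doxo-NMN hearts, and it averages genes that went both ways. In Doxo-NMN vs. Doxo, *Btg2* (−2.39) and *Trp53inp1* (−1.31) were called lower, as *Cdkn1a* was, and *Ccng1* (0.73) was called higher. In Doxo-NMN vs. Ctrl, 3 of the 14 were called higher and 9 were higher at an adjusted p under 0.05 at any fold. Over all tested genes, 7.11% and 26% passed these limits in either direction.

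The targets of the inhibitors were also counted, beside the 30.1% of all tested genes that were called in acute Doxo vs. Ctrl. Whether any list differs from genes in general was not tested. Of the 4 kinases, *Cdk1*, which drives mitosis, and *Cdk6*, a partner of D cyclins, were called lower in acute Doxo vs. Ctrl (−1.87 and −0.68) and none higher. Of 7 tested cyclins, 4 were lower and 0 higher, among them the D cyclins *Ccnd1* (−1.29) and *Ccnd2* (−0.93) and the mitotic cyclin *Ccnb2* (−1.06). Of 13 RB and E2F genes, 2 were higher (*Tfdp2*, 1.55, a partner of E2F, and *E2f8*, 1.09) and 2 lower (*E2f1*, −1.36, and *E2f2*, −1.18). Mean levels in Ctrl hearts were low for *Cdk1* (0.640 CPM), *Ccnb2* (0.405), *E2f1* (0.841), *E2f2* (0.639) and *E2f8* (0.664), whose fold changes rest on low counts. Of 17 tested proliferation genes, 2 were higher (*Mcm4*, 0.76, and *Mcm7*, 0.62, of the replicative helicase) and 5 lower, among them *Top2a* (−1.58), a topoisomerase that Doxo targets, *Mki67* (−1.12) and *Mcm2* (−0.65).

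With NMN these genes did not move as 1 group. Of all tested genes, 17.1% were called in Doxo-NMN vs. Doxo and 7.11% in Doxo-NMN vs. Ctrl. In Doxo-NMN vs. Doxo, none of the 4 kinases was called, and of the 7 cyclins *Ccnd1* (0.69) and *Ccnd2* (0.65) were higher and the S-phase cyclin *Ccna2* (−1.04) lower. Of the 13 RB and E2F genes, 4 were lower and 0 higher, namely *Tfdp2* (−1.17), *E2f8* (−0.98), *E2f2* (−0.88) and *E2f7* (−0.81). Of the 17 proliferation genes, 3 were lower and 0 higher, namely *Birc5* (−1.29), *Mki67* (−0.73) and the mitotic kinase gene *Plk1* (−0.69). Mean levels in Doxo and Doxo-NMN hearts were low for *Birc5* (0.454 and 0.181 CPM), *Plk1* (0.281 and 0.171), *Ccna2* (0.621 and 0.297) and *E2f2* (0.277 and 0.149). Against Ctrl, Doxo-NMN hearts had 1 kinase, 3 cyclins, 3 RB and E2F genes and 6 proliferation genes lower and none of these lists' genes higher, with *Mki67* at −1.84 and *Top2a* at −2.39.

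Genes that act upstream of the inhibitors were mixed in acute Doxo vs. Ctrl, in which 30.1% of all tested genes were called. Of 9 tested genes for the degradation of p27 and p21, *Cul4b*, a cullin, was higher (0.96) and *Skp2*, the F-box protein for p27, lower (−0.60). None of the 3 FOXO factors was called, and of 7 Polycomb genes, which silence the *Cdkn2a* locus, *Cbx7* was higher (0.83). Of 12 Myc and TGF-beta genes, 3 were higher, led by *Myc* (2.98) with its antagonist *Mxd1* (0.89) and the ligand *Tgfb2* (0.62), and 2 lower (*Tgfb3*, −0.80, and *Smad3*, −0.61). In the chronic study, *Tgfb2* was the only gene of all these lists to pass in Doxo vs. Ctrl (log2 fold change 0.89, adjusted p = 0.0123).

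Markers of other cells differed between the acute groups beside the members. The 5 neutrophil markers summed to 1.70 to 5.14 CPM in Ctrl (median 2.59), 3.14 to 263 in Doxo (16.2) and 4.81 to 30.1 in Doxo-NMN hearts (9.60). The 5 red cell markers summed to 437 to 4311 CPM in Ctrl (median 1114), 1.19 to 338 in Doxo (2.30) and 0.209 to 2.81 in Doxo-NMN hearts (1.42). The 5 skeletal muscle markers, of which *Acta1* and *Ckm* are also genes of the heart, summed to 868 to 1720 CPM in Ctrl (median 1328), 290 to 1399 in Doxo (560) and 434 to 1488 in Doxo-NMN hearts (1131). The medians of the 8 cardiomyocyte markers were 65580, 55618 and 72824 CPM. No marker of these lists was at 0 throughout a group, and their part in the results was not tested. For atrial markers, *Cdkn1a* and *Cdkn2d* had log2 fold changes in Doxo vs. Ctrl of 1.65 and 0.94 within the low and of 1.27 and 0.98 within the high hearts, and all 4 were called.

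The genes whose log2 CPM was most like that of a member over the 40 acute hearts were *N6amt1* (r = 0.962), *Nars* (0.954) and *Dazap2* (0.951) for *Cdkn1a*, and *Kri1* (0.939), *Rab20* (0.930) and *Gpr146* (0.928) for *Cdkn2d*. For *Cdkn1c* they were *Epha4* (0.850), *Mrgpre* (0.846) and *Sec14l1* (0.838), and for *Cdkn1b* *Rad51d* (0.808), *Kcna2* (0.788) and *Dhx57* (0.753). The nearest gene had r = 0.572 for *Cdkn2b* (*Car13*) and 0.568 for *Cdkn2c* (*Pfkfb1*). *Cdkn2d* ranked 901 of 14239 genes by its likeness to *Cdkn1a* (r = 0.843), and *Cdkn1c* was opposed to *Cdkn1a* (r = −0.71). These values hold the group differences, with hearts that share their treatment, and are descriptions.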

How the data were processed

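Heart RNA of 57 mice was analysed, with groups and replicate numbers taken from the sample labels. The authors extracted total RNA, selected poly(A) RNA, sequenced single-end reads on a NovaSeq instrument at a different site for each study, mapped them to mm10 with STAR (2.7.3a per the submitters' processing notes) and counted them per gene with featureCounts 2.0.0. The deposited values are the authors' raw counts, whole numbers without normalization. The gene annotation and strand setting are not given in the sources used here. Of the acute counts from 1 to 20, 73.7% were even numbers (40.3% in the chronic table), and a fit with acute counts divided by 2 was added for that reason.

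Tests on counts used edgeR 4.0.16 in R 4.3.3 (filterByExpr by group, TMM, quasi-likelihood F-test), with the 3 groups of a study fitted together and p-values adjusted over all tested genes by the Benjamini-Hochberg method. Standard errors were taken from the log2 fold change and F. The filter left 14240 acute and 14960 chronic genes. The study interaction used 25416 symbols found in both tables. CPM and RPKM use TMM library sizes, and log2 CPM a prior count of 2. Positions and exon lengths come from the GENCODE annotation of GRCm38, and promoters from RefSeq. Permutation tests were two-sided, with 100000 resamples, or exact in the chronic study. Python 3.11.15 and matplotlib 3.10.9 made the figures. The calculations were tested on simulated data.

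Alternatives were voom with sample weights (limma 3.58.1), DESeq2 1.42.0, another normalization (RLE), other filters and fold limits, pairs of groups, robust dispersions, the replicate number as a block, atrial markers, and each heart left out. A glucocorticoid-induced covariate was added after the values were seen. The members and gene lists were chosen with earlier results of these data known. Named are all members, in each list and direction up to 3 genes called between Doxo and Ctrl (those of smallest adjusted p), and the 3 genes most like each member, while *Mdm2*, *Myl4* and the list genes given for Doxo-NMN were named after their values were seen. No repeated library was found (lowest chi-square per gene 9.91 between acute and 5.09 between chronic hearts of a group). SDs measure the spread between these hearts, and p-values and standard errors are based on that spread. Floors cover counting error only.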

Additional observations from a re-analysis of the deposited data

Results flagged for a closer look

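Among the 21 sets of 4 to 10 hearts of 1 chronic group that were checked, 4 held a heart far from the others by Dixon's criterion, which chance alone meets in about 1 set in 20. *Cdkn1a* was at 117 CPM in chronic Doxo replicate 2, where the other 5 hearts had 15.4 to 29.6 CPM. The same heart had 11.3 CPM of *Cdkn2c*, where the others had 9.05 to 9.81 CPM. *Cdkn1c* was at 34.8 CPM in chronic Ctrl replicate 1, against 14.9 to 18.0 CPM in the other 4 hearts. *Cdkn2a* was at 0.590 CPM in chronic Doxo replicate 5, against 0.0574 to 0.248 CPM in the others. The difference of the Doxo effect between the chronic and the acute study passed its test for *Cdkn2d* (−0.83 on the log2 scale, edgeR adjusted p = 0.0364), and the studies differ in age, dosing, supplier, sequencing site and day of collection, which cannot be told apart.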

How the results depend on the processing

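*Cdkn1a* and *Cdkn2d* kept both acute calls when any heart was left out and under DESeq2, limma voom, RLE factors, both filters, 2-group fits, robust dispersions, the atrial settings and halved acute counts. A 2-fold limit left 1 call each in Doxo vs. Ctrl and Doxo-NMN vs. Doxo. In Doxo vs. Ctrl the glucocorticoid-induced covariate, which itself differs between these groups, left 0 calls, and hearts under 100 CPM of *Myl4* gave 4, with *Cdkn1c* and *Cdkn2b* added. Without the low-count filter there were 3 calls in each of these comparisons, with *Cdkn2a* added. The number of members whose Doxo effect differed between studies was 0 to 2 with a heart left out.

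The cause of the changes of sign below was not tested, and the values are log2 fold changes of members that were not called. With limma voom, *Cdkn2b* was −0.19 in acute Doxo vs. Ctrl, 0.11 in Doxo-NMN vs. Doxo and −0.080 in Doxo-NMN vs. Ctrl. In the chronic study *Cdkn2c* was −0.045, 0.027 and −0.018 in these comparisons, *Cdkn2d* 0.027 in the second and *Cdkn1b* −0.022 in the third. In hearts at or over 100 CPM of *Myl4*, Doxo vs. Ctrl was 0.13 for *Cdkn1b* and −0.61 for *Cdkn2b*, Doxo-NMN vs. Doxo −0.027 and 0.31, and Doxo-NMN vs. Ctrl −0.30 for *Cdkn2b* and −0.016 for *Cdkn2c*. In hearts under it, *Cdkn2c* was 0.036 in Doxo-NMN vs. Doxo. With the glucocorticoid-induced covariate, acute *Cdkn2b* was −0.37, 0.12 and −0.25, and in Doxo-NMN vs. Ctrl *Cdkn1a* was −0.29, *Cdkn1b* −0.0045 and *Cdkn2d* −0.11. In the chronic study this covariate gave −0.0011 for *Cdkn2c* in Doxo vs. Ctrl, 0.0040 for *Cdkn2c* and 0.0083 for *Cdkn2d* in Doxo-NMN vs. Doxo, and −0.32 for *Cdkn1a* and −0.041 for *Cdkn1b* in Doxo-NMN vs. Ctrl. On the log2 CPM of the permutation test chronic *Cdkn1a* was −0.011 in Doxo-NMN vs. Ctrl, and with the atrial covariate the study difference of *Cdkn2b* was −0.12.

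Leaving out a heart turned signs only of uncalled values. Acute Doxo-NMN vs. Doxo ranged from −0.28 to 0.057 for *Cdkn2b* and −0.040 to 0.014 for *Cdkn2c*, and Doxo-NMN vs. Ctrl from −0.0060 to 0.076 for *Cdkn1b* and −0.12 to 0.21 for *Cdkn2b*. Chronic Doxo-NMN vs. Doxo ranged from −0.17 to 0.074 for *Cdkn2b*, −0.047 to 0.018 for *Cdkn2c* and −0.12 to 0.047 for *Cdkn2d*. Chronic Doxo-NMN vs. Ctrl ranged from −0.074 to 0.10 for *Cdkn1a*, −0.034 to 0.063 for *Cdkn1b*, −0.37 to 0.020 for *Cdkn1c*, −0.018 to 0.25 for *Cdkn2b* and −0.017 to 0.090 for *Cdkn2c*. The study difference ranged from −0.0043 to 0.38 for *Cdkn1c*, −0.13 to 0.18 for *Cdkn2b* and −0.050 to 0.065 for *Cdkn2c*.

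With the replicate number as a block, 2, 2 and 0 members were called in the acute and 0 in each chronic comparison, as without it, and chronic *Cdkn1a* in Doxo-NMN vs. Ctrl was −0.049. The numbers do not pair the hearts: of 39 acute pairs 18 had a correlation of deviations over 0.1 (range −0.62 to 0.58), 4 of 39 hearts correlated best with their own number, and of 16 chronic pairs 4 were over 0.1.

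Depth limits *Cdkn2a* and *Cdkn2b*, whose counts per heart were at most 13 and 42, and 5 or 6 chronic hearts per group gave wide errors. The 2 tables list different numbers of genes and were normalized separately, so levels set across them are not a test.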
